A study of Mus musculus with 4 samples.

Results

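The genes described here encode the subunits of RNA polymerases I, II and III and the general transcription factors that place polymerases II and III on their promoters. They were chosen by name alone: every probe set with a single gene symbol that begins with Polr1, Polr2, Polr3, Gtf2 or Gtf3. This gave 73 of the 20380 probe sets with 1 symbol, which read 42 of the 12393 genes measured. The data are signals from 4 Affymetrix arrays of whole mouse lung, 2 from wild-type and 2 from Sftpc-Nmyc embryos, all given as embryonic day 18 in the sample titles. The Sftpc-Nmyc embryos carry a fusion of mouse Nmyc1 (now Mycn) with the fluorescent protein EGFP, under 3.7 kb of SFTPC promoter and enhancer from human, a lung epithelial regulator. Of 4 transgenic embryos made by injecting F2 eggs (C57BL/6J and DBA/2J), collected at embryonic day 18.5 per the design text, it is not stated which 2 were used, and each was a founder. The strain and exact age of the wild type are not stated, and the duplicates are called biological replicates.

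RNA polymerase I transcribes the large ribosomal RNAs in the nucleolus, polymerase II transcribes messenger RNAs, and polymerase III transcribes transfer RNAs, 5S ribosomal RNA and other short RNAs. The enzymes are built on the same plan: each has its own large catalytic subunits, polymerases I and III share an assembly pair (Polr1c and Polr1d), and all share a set of small subunits that carry Polr2 names. MYC proteins are known to act on genes transcribed by all of these enzymes, and growing cells need more ribosomal and transfer RNA.

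The 3 Mycn probe sets disagreed: the brightest read 34.7 and 32.1 on the wild-type arrays and 455.2 and 356 on the Sftpc-Nmyc arrays, another read 78.7 and 63.5 against 25.1 and 27.2 (-1.20, limma adjusted p = 0.048 over all probe sets), and the last read 57.3 and 18.8 against 61.8 and 43.8 (0.64, 0.47). By the brightest probe set Mycn was higher by 3.46 on the log2 scale, and by 0.97 when the 3 were averaged. Of 8675 genes tested with limma, 14.7% were higher and 15.7% lower in Sftpc-Nmyc lungs at an adjusted p under 0.05 (Benjamini-Hochberg over all genes tested), 30.4% in either direction. Markers fixed for other cell types moved with genotype. All 7 markers of dividing cells were higher (summed signal 2337 and 1628 against 5030 and 5262). Of 6 lung epithelial markers, 3 were higher and none lower (3346 and 3795 against 5685 and 5821). All 7 alveolar type II markers were lower (25810 and 30017 against 8850 and 6571), as were all 6 endothelial, 4 of 6 fibroblast and all 5 tested cardiac markers, and none of these lists had a higher member. Xist, which is expressed from the inactive X chromosome, read 1708 and 1506 against 59.3 and 63.9, and the Y-linked Eif2s3y read 3.1 and 0.8 against 58 and 61.7, so sex and genotype cannot be told apart. The part of cell composition in the results below was not tested, and in whole lung a change in the number of cells of a type cannot be told from a change in RNA per cell.

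Polymerase and general factor genes were higher in Sftpc-Nmyc lungs or did not pass the test, and none was lower. Of the 38 genes bright enough to be tested, 19 rose, against a background of 14.7% of all genes tested, and 0 fell, against 15.7%. With no adjustment, limma's p was under 0.05 for 22 higher and 0 lower, against 20.6% and 21.6% of all genes tested. The log2 fold change, always Sftpc-Nmyc minus wild type of normalized log2(signal + 5), had a median of 0.53 over these 38 genes and of -0.02 over all genes tested, with a range from -0.25 (Polr2a) to 1.27 (Gtf3a). The difference was above 0 for 32 of the 38 genes, compared with 4204 of all 8675. Changes were mostly under 2-fold: 6 of the 19 passed that size, namely Polr1b, Polr2f, Polr2h, Polr3k, Gtf2f2 and Gtf3a. Of these, Polr3k and Gtf2f2 were dim in wild type. Gtf2f2 lay under the filter level in wild type and was tested only through its Sftpc-Nmyc signals, so its call carries little weight. The deposited signals of the groups did not overlap for 30 of the 38, while 68.4% of all genes tested showed no overlap. The count of 19 depended on the arrays used: it was smaller whichever array was left out, with 0 genes lower each time. Such a fit has 1 array in a group, and fewer of all genes tested passed as higher in it too. With probe sets rather than genes as the unit and no filter on dim signals, 21 of the 73 probe sets were higher and 0 lower in limma, where the background was 6.79% higher and 6.16% lower. Polr3b, Gtf2a2, Gtf2e1, Gtf2h2, Gtf2h5 and Gtf3c3 were not analysed here.

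**Figure D1:**
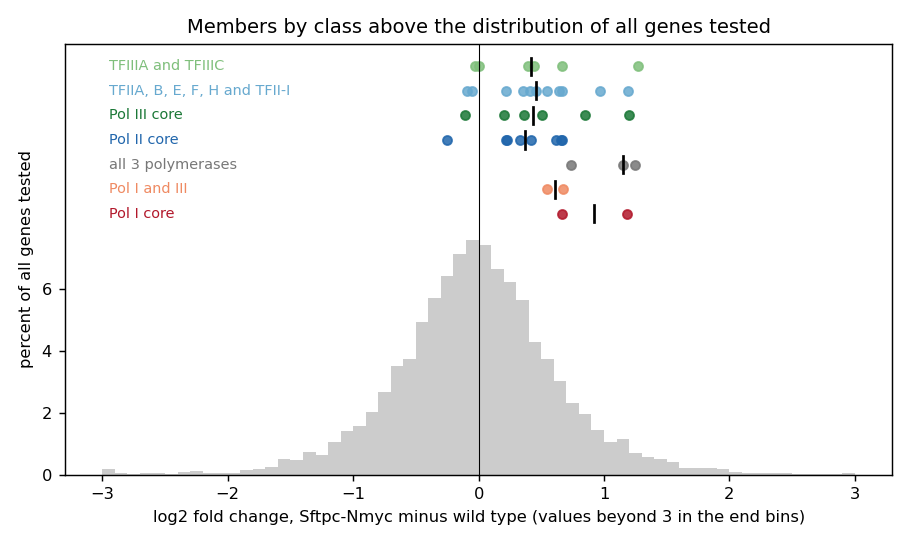
The grey histogram shows the log2 fold change (horizontal axis, Sftpc-Nmyc minus wild type) of all 8675 genes tested as a percentage of genes (vertical axis). Each coloured point above it is a tested gene, in a row for its class, and the black tick marks the median of that row, which lies to the right of 0 in all 7 rows.

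**Figure D2:**
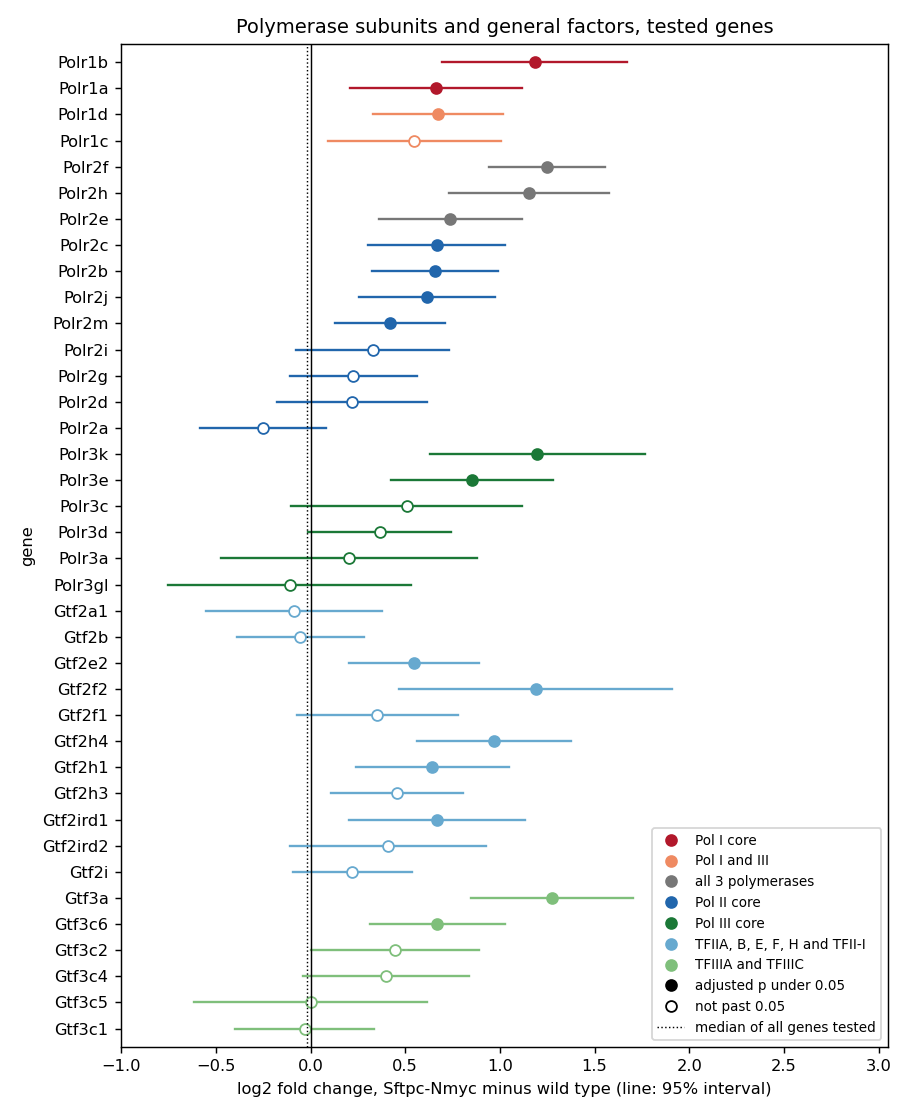
Points give the log2 fold change of the 38 tested genes (horizontal axis), coloured by class, and lines give limma's 95% interval. Filled points passed at an adjusted p under 0.05 and all 19 of them lie to the right of 0, while the 19 open points did not pass.

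Polymerase I was read by its largest subunits and 1 accessory subunit. Both tested core genes rose, next to 14.7% of all genes tested. Polr1b, the second-largest subunit, read 109.7 and 73.4 on the wild-type arrays and 208.4 and 207.2 on the Sftpc-Nmyc arrays, a log2 fold change of 1.18 ± 0.21 (SE, n = 2 per group; limma adjusted p = 0.0053). The transgenic arrays were nearly equal and both were well above the wild type. Polr1a, the largest subunit and part of the catalytic centre, read 110.7 and 84.5 against 165.4 and 143.1, a rise of 0.66 ± 0.20 on the log2 scale (limma adjusted p = 0.037). The groups were separate, but the call for Polr1a was lost without wild-type replicate 2 (0.48, limma adjusted p = 0.16), Sftpc-Nmyc replicate 1 (0.56, 0.16) or Sftpc-Nmyc replicate 2 (0.77, 0.075), with no filter on dim genes (limma adjusted p = 0.083) and without the variance trend (0.051). Tested over all probe sets, this brightest Polr1a probe set did not pass (limma adjusted p = 0.094), and neither did the next, at 64.2 and 44.4 against 73.1 and 80.3 (0.54 ± 0.26, limma adjusted p = 0.24). The last Polr1a probe set passed as higher (limma adjusted p = 0.016) but read only 8 and 8.7 against 48.4 and 57.6, so no fold is given for it. Polr1e, a subunit of the module that helps the enzyme start and elongate, was below the filter: its brighter probe set read 27.6 and 13.5 against 48.1 and 63.3, and no test was made for the gene. Its highest reading, and those of that last Polr1a probe set, lay under 73.4, which the brightest of 27 Bacillus control probe sets reached and which serves here as a guide to background. Another polymerase I subunit that the name rule does not cover, Znrd1, read 325.1 and 305.5 against 312.1 and 338.3, so that its groups overlapped (0.04 ± 0.11 over all probe sets, limma adjusted p = 0.86).

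The pair shared by polymerases I and III pointed the same way. Polr1d read 338.8 and 362.9 in wild type and 518.9 and 617.1 in Sftpc-Nmyc lungs, a rise of 0.67 ± 0.15 on the log2 scale (limma adjusted p = 0.012). Its partner Polr1c, with which it forms the assembly platform of both enzymes, read 228.1 and 269.8 against 306 and 434.6 and did not pass (0.55 ± 0.20, limma adjusted p = 0.071). The Polr1c groups did not overlap, but its transgenic arrays lay far apart. A second Polr1c probe set read 166.9 and 197.3 against 316 and 439.6 and did pass (1.03 ± 0.20, limma adjusted p = 0.034 over all probe sets). With the mean of its probe sets in place of the brightest, Polr1c passed as a gene (0.79, limma adjusted p = 0.021), as it did with per-array median scaling (0.62, 0.044) and without Sftpc-Nmyc replicate 1 (0.80, 0.028). The call for Polr1d was lost without wild-type replicate 1 (0.63, limma adjusted p = 0.075), wild-type replicate 2 (0.71, 0.061) or Sftpc-Nmyc replicate 2 (0.54, 0.073).

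All 3 tested subunits common to polymerases I, II and III rose, next to 14.7% of all genes tested. Polr2f, a small subunit at the base of the clamp that closes over DNA, read 319.1 and 314.1 in wild type and 796.4 and 729.4 in Sftpc-Nmyc lungs, a rise of 1.25 ± 0.13 on the log2 scale (limma adjusted p = 0.00076). By this probe set Polr2f had the smallest p-value of all the genes described here. Polr2h, which binds near the assembly platform, read 95.8 and 88.6 against 235.5 and 185.7 (1.15 ± 0.18, limma adjusted p = 0.0032), and Polr2e, which contacts DNA ahead of the enzyme, read 227.3 and 289 against 421.7 and 440.3 (0.74 ± 0.16, limma adjusted p = 0.013). In each of the 3 genes the lower transgenic array exceeded the higher wild-type array, as it did for 32.3% of all genes tested. Other probe sets disagreed for both Polr2f and Polr2e. The second Polr2f probe set read 90.2 and 74.6 against 44.7 and 22.4, the opposite direction, and did not pass over all probe sets (-1.18 ± 0.38, limma adjusted p = 0.11). With probe sets under the 30th percentile left out, an alternative added after seeing the data, it passed as lower (limma adjusted p = 0.039). The second Polr2e probe set read 140.9 and 100.6 against 110.3 and 75.9 and did not pass (-0.34 ± 0.27, limma adjusted p = 0.47). When all probe sets of a gene were averaged, neither gene passed (Polr2f 0.03, limma adjusted p = 0.92, and Polr2e 0.20, 0.36). Polr2h has 1 probe set, so its call could not be checked against another. Polr2e also lost its call when wild-type replicate 1 (0.57, limma adjusted p = 0.077) or Sftpc-Nmyc replicate 2 (0.70, 0.060) was dropped.

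Of the 8 genes counted here as specific to polymerase II, 4 rose (50%) and 4 did not pass, next to 14.7% higher over all genes tested. Those that rose did so by less than 2-fold. Polr2b, the second-largest subunit, read 225.3 and 243.4 in wild type and 379.5 and 364.5 in Sftpc-Nmyc lungs (0.66 ± 0.14, limma adjusted p = 0.012). Polr2c, which pairs with Polr2j in the assembly platform, read 206.5 and 243 against 343.1 and 370.6 (0.66 ± 0.16, limma adjusted p = 0.016). Polr2j read 255.7 and 313.9 against 427.5 and 448.4 (0.61 ± 0.16, limma adjusted p = 0.021). The members of that pair shifted by a similar amount, with close transgenic readings. Polr2m is counted with these genes by its name, but it encodes the Gdown1 protein, which binds the finished enzyme and is not a core subunit. Of the 4 it rose least, from 806.5 and 777.3 to 1024.1 and 1154.2 (0.42 ± 0.13, limma adjusted p = 0.039).

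The largest subunit of polymerase II, Polr2a, which carries the catalytic centre and the C-terminal repeat, did not rise with Polr2b. It read 304.9 and 331 in wild type and 270 and 263.1 in Sftpc-Nmyc lungs, a log2 difference of -0.25 with a 95% interval from -0.58 to 0.08 (limma adjusted p = 0.22). Both transgenic arrays lay below both wild-type arrays, and this was the lowest log2 difference among the 38 genes. A second Polr2a probe set read 113.7 and 123.9 against 129.9 and 124.4, or 0.11 ± 0.16 on the log2 scale (limma adjusted p = 0.71 over all probe sets). Polr2d, a subunit of the detachable stalk, read 311.6 and 245.8 against 302.2 and 343.4, with overlapping groups (0.22, interval from -0.18 to 0.61). Its stalk partner Polr2g read 497.6 and 422.9 against 532.9 and 560.3 (0.23, interval from -0.11 to 0.56). Polr2i, which takes part in transcript cleavage and proofreading, read 520.3 and 455.1 against 540.2 and 716.6 (0.33, interval from -0.08 to 0.73). The interval of Polr2b, from 0.33 to 0.99, overlapped those of Polr2d, Polr2g and Polr2i and lay above that of Polr2a. Differences between these genes were not tested.

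Calls for the polymerase II genes were lost in some fits without an array, which have 1 array in a group. Without wild-type replicate 1, Polr2b (0.60, limma adjusted p = 0.068), Polr2c (0.55, 0.091), Polr2j (0.47, 0.12) and Polr2m (0.46, 0.11) did not pass. Without Sftpc-Nmyc replicate 2 the same held for Polr2c (0.61, limma adjusted p = 0.080), Polr2j (0.57, 0.093) and Polr2m (0.33, 0.18), and without Sftpc-Nmyc replicate 1 for Polr2b (0.64, 0.052) and Polr2j (0.66, 0.056). Polr2m also missed without wild-type replicate 2 (0.38, limma adjusted p = 0.16), with no filter on dim genes (0.059), without the variance trend (0.10) and with the replicate number as a block (0.071).

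Of 6 tested subunits specific to polymerase III, 2 rose (33.3%), next to 14.7% of all genes tested. Polr3k, a small subunit used in transcript cleavage and termination, read 43.1 and 62.8 on the wild-type arrays and 112.9 and 129.3 on the Sftpc-Nmyc arrays, a rise of 1.20 ± 0.25 on the log2 scale (limma adjusted p = 0.0091). It was read by 5 probe sets, all above 0, from 1.10 to 2.25 in log2 fold change, and 4 of the 5 passed over all probe sets. Both wild-type readings lay under the 73.4 of the brightest Bacillus control, so the size of this rise is uncertain. The call was lost without Sftpc-Nmyc replicate 2 (1.11, limma adjusted p = 0.059). Polr3e, a subunit of the module that aids initiation, read 76.6 and 89.6 against 143.8 and 157.7 (0.85 ± 0.18, limma adjusted p = 0.011). Its call was lost when wild-type replicate 1 (0.73, limma adjusted p = 0.057) or Sftpc-Nmyc replicate 2 (0.79, 0.067) was dropped. In both genes the groups did not overlap, which held in this direction for 32.3% of all genes tested.

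The other polymerase III genes did not pass or were not tested. Polr3a, the largest subunit, read 77 and 51.2 against 54.3 and 89.6, with overlapping groups (0.20, 95% interval from -0.47 to 0.88). Polr3c, part of the initiation module, read 71.6 and 54.2 against 69 and 110.2 and also overlapped (0.51, interval from -0.10 to 1.12). Polr3d, the partner of Polr3e, read 114.5 and 119.1 against 147.5 and 153, which did not overlap but did not pass (0.36, interval from -0.01 to 0.74; limma adjusted p = 0.13). For both Polr3c and Polr3d the average over probe sets passed (0.66, limma adjusted p = 0.048, and 0.58, 0.033). Polr3f, also of the initiation module, was below the filter at 34 and 31.8 against 37.6 and 43.1. Crcp, a polymerase III subunit outside the name rule, read 90.7 and 105.5 against 115.4 and 125.7 (0.31 ± 0.18 over all probe sets, limma adjusted p = 0.32).

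Polr3g and Polr3gl encode alternative versions of the same polymerase III subunit, of which Polr3g is known from embryonic stem and tumour cells and Polr3gl is the widespread form. Polr3g read 20.7 and 26.6 in wild type and 49.7 and 52.5 in Sftpc-Nmyc lungs, which put it under the filter and under the brightest Bacillus control on all 4 arrays. As a probe set it had a log2 fold change of 1.07 ± 0.30 and did not pass over all probe sets (limma adjusted p = 0.083). Among probe sets at or above the 30th percentile, an alternative added after seeing the data, it passed (limma adjusted p = 0.040). Polr3g cleared that percentile only through its Sftpc-Nmyc arrays (log2 mean 5.85, against 4.77 in wild type), so this call carries little weight. Polr3gl read 87.4 and 104 against 113.6 and 64.4, so its transgenic arrays lay on both sides of the wild type (-0.11, 95% interval from -0.75 to 0.53). Whether the paralogues differ in response was not tested.

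**Figure D3:**
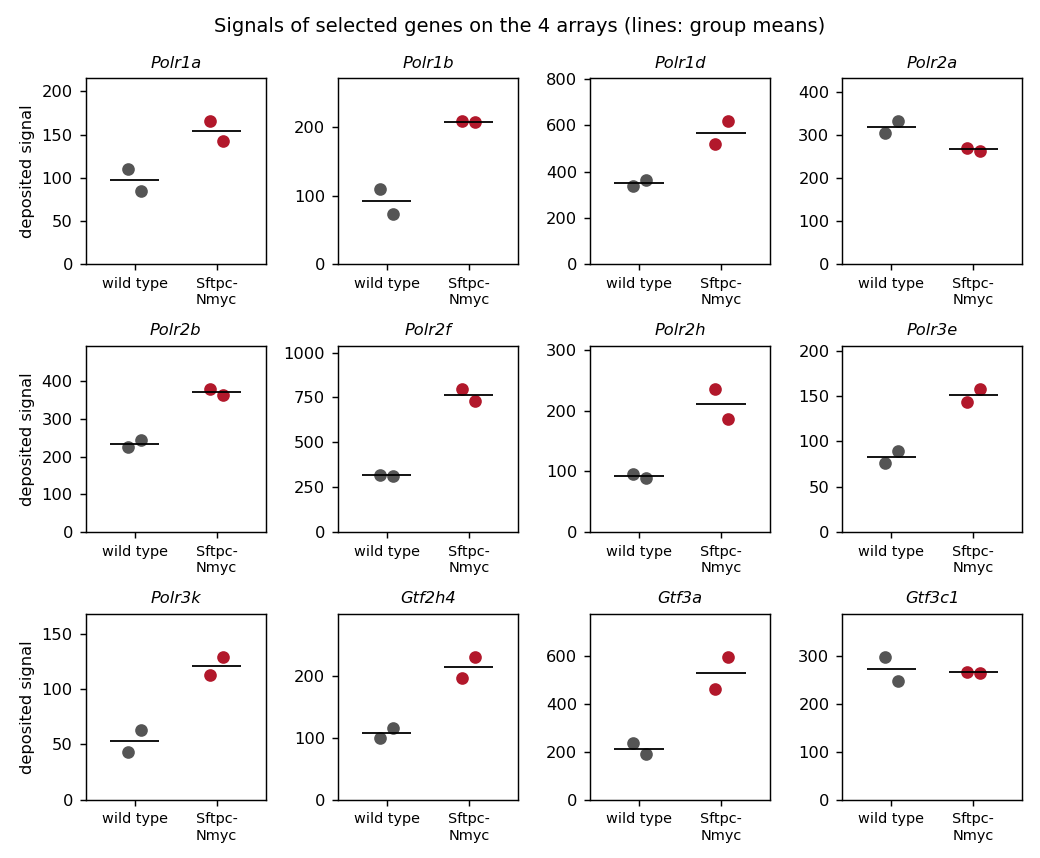
Each panel shows the deposited signal of a gene (vertical axis, linear, from 0) on the 2 wild-type arrays in grey and the 2 Sftpc-Nmyc arrays in red, with lines at the group means. Polr1b, Polr2f, Polr2h and Gtf3a are at least 2-fold higher in the red group, Polr2a is a little lower, and Gtf3c1 overlaps.

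Set beside each other, all 3 enzymes had subunits that rose. Counting shared subunits with each enzyme, 6 of 7 tested subunits of polymerase I, 7 of 11 of polymerase II and 6 of 11 of polymerase III passed as higher, with 0 lower in each, next to 14.7% higher over all genes tested. The medians of these overlapping sets were 0.74, 0.61 and 0.67. Without the shared subunits, the counts were 2 of 2 for polymerase I (median 0.92), 4 of 8 for polymerase II (0.37) and 2 of 6 for polymerase III (0.44), whereas the median of the 3 subunits common to all was 1.15. Left out of these counts and medians by the name rule were Znrd1 of polymerase I (0.04) and Crcp of polymerase III (0.31). Neither passed, and with so few polymerase I genes its median depends on that omission. The polymerase II counts and medians include Polr2m (0.42), whose protein binds the finished enzyme. Relative to the wild-type mean, the mean log2 signal of the polymerase I core genes was 0.97 and 0.87 on the Sftpc-Nmyc arrays, but 0.23 and -0.23 on the wild-type arrays. The same values were 0.30 and 0.42 for the polymerase II core genes (0.01 and -0.01 in wild type), and 0.44 and 0.57 for the polymerase III core genes (-0.02 and 0.02). The polymerase I value rests on 2 genes, and its wild-type arrays lay further apart than those of the other enzymes. Leaving out each array in turn gave medians from 0.69 to 1.15 for polymerase I, from 0.25 to 0.53 for polymerase II and from 0.31 to 0.66 for polymerase III, so that the last 2 ranges overlap. A difference between the enzymes was not tested. With the mean of probe sets the median of the common subunits went from 1.15 to 0.20. The core medians in that setting were 1.16 for polymerase I, 0.37 for polymerase II and 0.62 for polymerase III, so these also depend on the choice of probe set.

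The general factors of polymerase II assemble on promoters in steps. Of 8 tested genes of TFIIA, TFIIB, TFIIE, TFIIF and TFIIH, 4 rose (50%) and 4 did not pass, next to 14.7% higher over all genes tested. Gtf2h4, a subunit that anchors the DNA-opening helicase in TFIIH, read 99.8 and 115.5 in wild type and 196.9 and 230.6 in Sftpc-Nmyc lungs (0.97 ± 0.18, limma adjusted p = 0.0056). Gtf2h1, another core subunit of TFIIH, read 92.2 and 105.4 against 159.9 and 149.9 (0.64 ± 0.17, limma adjusted p = 0.028). Gtf2h3 read 168.9 and 173.1 against 236.5 and 233.7, with close replicates and no overlap, and just missed the threshold (0.46 ± 0.15, limma adjusted p = 0.053). It passed with per-array median scaling (0.034), with genes below the 50th percentile left out (0.041) and in the fit with averaged probe sets (0.042), all limma adjusted p. Gtf2h3 has 1 probe set, so the averaging changed the fit around it and not its own values.

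Gtf2f2, the smaller subunit of TFIIF, was dim, at 35.3 and 21.9 against 55.5 and 77 (1.19 ± 0.31, limma adjusted p = 0.024). The larger subunit, Gtf2f1, read 137.7 and 125.5 against 147.3 and 192 and did not pass (0.35 ± 0.18, limma adjusted p = 0.18). Gtf2e2, of TFIIE, which recruits TFIIH, read 263.2 and 229.7 against 359.4 and 365.7 (0.55 ± 0.15, limma adjusted p = 0.027). Gtf2b, the single protein of TFIIB that bridges promoter and enzyme, read 446.2 and 392.1 against 397.9 and 414.2, with overlapping groups (-0.05, 95% interval from -0.39 to 0.28, and 0.03 with per-array median scaling). Gtf2a1, of TFIIA, read 107.4 and 85.3 against 92.2 and 83.8 and overlapped too (-0.09, interval from -0.55 to 0.38). Gtf2a1l, a relative of Gtf2a1 known from germ cells, was below the filter at 36.6 and 23.2 against 31.9 and 33.6. Neither tested gene of TFIIA and TFIIB passed, and at least 1 gene each of TFIIE, TFIIF and TFIIH did. Differences between these factors were not tested.

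Apart from Gtf2h4, which passed whichever array was left out, these calls were lost in fits without an array. Such a fit has 1 array in a group, so a lost call does not show that a single array carried it. Gtf2e2 missed without wild-type replicate 1 (0.64, limma adjusted p = 0.058), wild-type replicate 2 (0.45, 0.13), Sftpc-Nmyc replicate 1 (0.57, 0.080) or Sftpc-Nmyc replicate 2 (0.53, 0.11). It also missed with the replicate number as a block (limma adjusted p = 0.0503) and without the variance trend (0.0511). Gtf2h1 missed without each of the 4 arrays (0.54 to 0.74, limma adjusted p = 0.057 to 0.11). Gtf2f2 missed without wild-type replicate 2 (0.94, limma adjusted p = 0.096), Sftpc-Nmyc replicate 1 (1.38, 0.060) or Sftpc-Nmyc replicate 2 (0.996, 0.18). With no filter on dim genes Gtf2f2 and Gtf2h1 both stood at a limma adjusted p of 0.060.

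The TFII-I family encodes DNA-binding regulators that share the Gtf2 name but are not part of the basal complex. Gtf2ird1 read 184.1 and 210.6 in wild type and 264.2 and 374.8 in Sftpc-Nmyc lungs (0.67 ± 0.20, limma adjusted p = 0.039). Its transgenic arrays differed widely, and the call was lost without Sftpc-Nmyc replicate 2 (0.41, limma adjusted p = 0.21), wild-type replicate 1 (0.56, 0.19) or wild-type replicate 2 (0.77, 0.099). It was also lost with no filter (limma adjusted p = 0.081), with the mean of probe sets (0.43, 0.088) and without the variance trend. Gtf2i itself read 1267 and 1400 against 1452 and 1767 (0.22 ± 0.14, limma adjusted p = 0.26), and Gtf2ird2 read 67.2 and 87.9 against 89.6 and 113 (0.41 ± 0.22, limma adjusted p = 0.21).

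Among the polymerase III factors, Gtf3a had the largest log2 fold change of all 38 tested genes. It encodes TFIIIA, the zinc-finger protein that recruits polymerase III to 5S ribosomal RNA genes and binds the 5S RNA itself. Gtf3a read 237.7 and 188.9 in wild type and 462 and 596.4 in Sftpc-Nmyc lungs, a rise of 1.27 ± 0.19 on the log2 scale (limma adjusted p = 0.0023), and passed under each of the 13 alternatives tried.

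TFIIIC is the multisubunit factor that binds the internal promoters of transfer RNA genes. Of its 5 tested subunits 1 rose (20%), next to 14.7% of all genes tested. The median log2 fold change was 0.40 over the 5, compared with -0.02 over all genes tested. Gtf3c6, its smallest subunit, read 165.9 and 148.1 against 243.9 and 256.2 (0.67 ± 0.15, limma adjusted p = 0.015). Its call was lost without wild-type replicate 2 (0.60, limma adjusted p = 0.080), without Sftpc-Nmyc replicate 2 (0.63, 0.073) and with the mean of probe sets (0.49, 0.12). Gtf3c1, the largest subunit, read 298.2 and 247.3 against 266.6 and 265.1 (-0.03, 95% interval from -0.40 to 0.33, and 0.04 with per-array median scaling). Gtf3c5 read 66.5 and 93.3 against 91.2 and 63.3, whose interval was wide (from -0.62 to 0.62). The groups of both genes overlapped. Gtf3c2 read 169.3 and 140.4 against 181.4 and 240.9 (0.44 ± 0.19, limma adjusted p = 0.12), and Gtf3c4 read 147 and 109.3 against 161 and 173.2 (0.40 ± 0.19, limma adjusted p = 0.15). These latter groups did not overlap and all 4 Gtf3c2 probe sets were above 0, from 0.44 to 0.63.

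Probe sets of a gene mostly pointed the same way. Of the 42 genes, 20 had more than 1 probe set, and in 16 of these every probe set had a log2 fold change of the same sign. The exceptions were Polr2a, Polr2e, Polr2f and Gtf2a1. Over all probe sets, 0 of the 20 genes had probe sets that passed in both directions. With dim probe sets left out 1 gene (Polr2f) did so, and 30 of 66 probe sets were higher and 1 lower (background 13.5% and 12.9%). The 30 include probe sets of Polr1e and Polr3g that cleared this filter only through their Sftpc-Nmyc arrays. The position of each probe set in its transcript was not examined here.

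**Figure D4:**
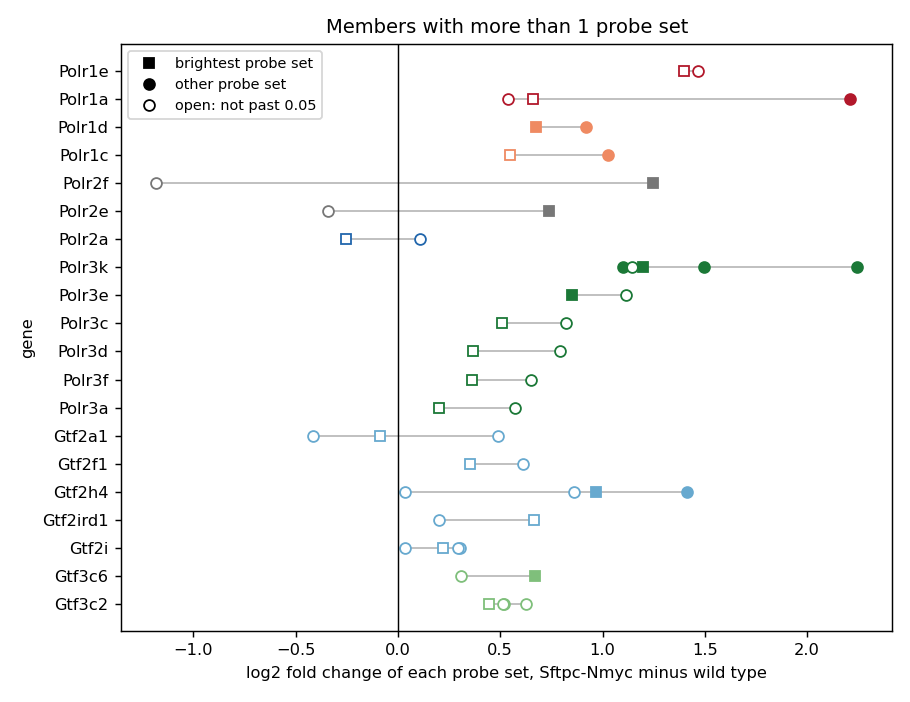
Each row is a gene with more than 1 probe set, coloured by class, and each symbol gives the log2 fold change of a probe set (horizontal axis). Squares are the brightest probe set, used for the gene, and filled symbols passed over all probe sets. Polr3k has 5 symbols between 1.10 and 2.25, while the Polr2f symbols lie on opposite sides of 0 at 1.25 and -1.18.

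Other parts of the transcription machinery, from lists of genes outside the name rule, were mixed, and the alternative settings were not run for them. Their counts stand next to 14.7% higher and 15.7% lower over all genes tested. The share higher ran from 11.1% for polymerase I factors and 12.5% for TFIID to 42.9% for polymerase assembly and 66.7% for mitochondrial transcription, all on few genes. Of 9 polymerase I factors, 1 was higher and 1 lower: Tbp, the TATA-binding protein used by all 3 enzymes, rose by 0.86 ± 0.21 (limma adjusted p = 0.019), and Cavin1, first described as a polymerase I release factor but better known as a coat protein of caveolae, fell by 0.52 ± 0.15 (limma adjusted p = 0.030). Named after their values were seen, Ubtf, which binds ribosomal DNA, read 427 and 415.5 against 404.1 and 427.9, and Rrn3, which makes polymerase I competent to start, read 63.5 and 35.8 against 74.9 and 99.5 (limma adjusted p = 0.062). Of 4 polymerase III factors 1 was higher, Ssb, the La protein that binds new polymerase III transcripts (0.54 ± 0.17, limma adjusted p = 0.048). Of 8 TFIID genes, 1 was higher (Tbp again) and none lower.

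The 5 remaining TFIIH genes went both ways. Ccnh, the cyclin of its kinase module, rose by 0.85 ± 0.15 (limma adjusted p = 0.0050), from 195.2 and 177.6 to 354.2 and 325.7. Ercc2, the helicase that links this module to the core, fell by 1.70 ± 0.29 (limma adjusted p = 0.0041), from 130.2 and 160.2 to 52.4 and 30.1 on its 1 probe set. Among the genes of these lists that passed, Ercc2 had the largest fall, next to rises in Gtf2h4 and Gtf2h1 of the same complex.

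Of 18 elongation and pausing genes, 5 were higher and 1 lower, among them Cdk9, the kinase that releases paused polymerase II (0.97 ± 0.14, limma adjusted p = 0.0024), Nelfcd, a subunit of the pausing factor NELF (1.02 ± 0.16, 0.0028), and Cdc73, of the PAF elongation complex (0.82 ± 0.15, 0.0065). The fall was in Ell2, an elongation factor, which read 82.6 and 107.5 against 34.6 and 49.3 (-1.03 ± 0.26, limma adjusted p = 0.020). Of 7 genes for assembly and nuclear import of the polymerases, 3 were higher and none lower: Rpap1 (0.79 ± 0.20, limma adjusted p = 0.020), Uri1, a chaperone-like protein that binds Polr2e (0.76 ± 0.17, 0.014), and Gpn1 (0.65 ± 0.19, 0.033), and all 7 log2 differences were above 0 with a median of 0.65. Of 6 mitochondrial transcription genes 4 were higher and none lower. Tfb2m, which opens mitochondrial promoters, rose by 1.29 ± 0.25 (limma adjusted p = 0.0066), while Polrmt, the mitochondrial RNA polymerase itself, read 217.9 and 246.4 against 232.8 and 224.5 (-0.02 ± 0.15; named after its values were seen).

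MYC proteins with their partner MAX bind the E-box CACGTG, so the promoters of these genes were searched for those letters, which read the same on both strands. RefSeq promoters of build GRCm38.p6, from 250 bases before to 50 after the start, were in the table for 37 of the 42 genes. CACGTG was present in 9 of these 37 (24.3%), compared with 849 of 7027 tested genes matched by symbol (12.1%) and 8.09% of all genes in the table. Among the genes described here it was in 4 of the 18 that rose (22.2%) and in 5 of the 15 that did not pass (33.3%), and this difference was not tested. Of all tested genes in the table, it was in 168 of 1053 that were higher (16.0%), 591 of 4933 that did not pass (12.0%) and 90 of 1041 that were lower (8.65%). Of the 6 genes that rose by more than 2-fold, Polr2h held CACGTG, starting 23 bases after a listed start, and Polr1b, Polr2f, Polr3k, Gtf2f2 and Gtf3a did not. A match here is only a match of letters, and binding was not measured.

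The stretches around 4 such matches upstream of the start are shown, 2 from genes that rose and 2 from genes that did not pass, with CACGTG in capitals. Gtf2h1 (rose) is at chr7:46796038-46796093 on the plus strand, with the E-box beginning 26 bases before the start. Gtf3c6 (rose) is at chr10:40257733-40257798 on the minus strand, 206 or 56 bases before its 2 listed starts. Gtf2f1 (not past the threshold) is at chr17:57011410-57011475 on the minus strand, 157 bases before the start, and Polr3gl (not past the threshold) is at chr3:96594340-96594405 on the minus strand, 194 bases before it.
Gtf2h1: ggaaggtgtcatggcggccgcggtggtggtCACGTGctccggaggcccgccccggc
Gtf3c6: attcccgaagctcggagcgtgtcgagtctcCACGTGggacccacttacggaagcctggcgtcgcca
Gtf2f1: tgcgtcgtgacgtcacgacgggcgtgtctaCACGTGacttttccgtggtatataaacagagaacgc
Polr3gl: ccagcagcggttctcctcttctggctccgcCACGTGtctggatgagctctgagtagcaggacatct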

How the data were processed

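The authors deposited linear-scale intensities, a value for each of 22690 probe sets on every array, with software and scaling not given in the sources used here. Names came from the platform's annotation, and all 42 genes matched RefSeq (GRCm38.p6) by gene identifier with the same symbol. Values were floored at 1, raised by 5, put on the log2 scale and quantile normalized across arrays without control probe sets, so fold changes understate those of dim genes. The brightest probe set stood for a gene, and genes with a mean under the 30th percentile were dropped, so 8675 were tested, 38 of them described here. The fits used limma 3.58.1 (R 4.3.3) through lmFit and trended eBayes, with group as the only term, two-sided, at an adjusted p of 0.05. Probe sets were fitted alike, over all 20380 with 1 symbol and no filter. Errors are limma standard errors, and the number of arrays limits precision. The code was tested on simulated data, where 38.6% of genes with an absolute log2 change of 1 were recovered, and 72.3% with 2. Not passing therefore does not show that a gene was unchanged. The name rule, gene lists and tests were chosen with earlier results of these data known. All genes under the name rule are named, and of other lists up to 4 past the threshold with the largest statistic. No test was made over a list of genes. Labels do not say that replicate numbers pair the samples.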

Additional observations from a re-analysis of the deposited data

How the results depend on the processing

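The 13 alternatives were per-array median scaling, no further normalization, offsets of 1 and 32, no filter and a 50th percentile filter, the mean of probe sets, no variance trend, the replicate number as a block, and leaving out each array. For genes with 1 probe set, among them Polr1b, Polr2h and Gtf3a, the mean of probe sets left their own values unchanged. Of the 19 genes that rose, Polr1b, Polr2h, Gtf2h4 and Gtf3a passed in all 13, and 15 missed in at least 1, of which 6 missed only without an array or with the block. The count higher was 14 to 21 over the settings that kept all arrays and 6 to 14 without an array, with 0 lower in each. Over all genes tested the share higher was 8.28% with no filter (14 of 42 here), 17.8% with median scaling (21 of 38), 18.4% with the 50th percentile filter (18 of 32), and 12.5% to 15.1% in the other settings with all arrays. Over all genes, leaving out an array gave 727 to 880 higher and 669 to 1037 lower, with fewer arrays in the fit. The replicate block gave 17 of these genes higher, and 1084 higher and 1134 lower over all genes. Replicate numbers showed no pairing (correlation of deviations -0.04), and cross pairing was not tried. With probe sets below the 30th percentile left out, added after seeing the data, 1 probe set was lower. Genes that did not pass changed sign in places. With per-array median scaling Gtf2b stood at 0.028, Gtf3c1 at 0.041 and Gtf3c5 at 0.022. Leaving out an array in turn moved Gtf2a1 from -0.24 to 0.066, Gtf2b from -0.16 to 0.053, Gtf3c1 from -0.17 to 0.11, Gtf3c5 from -0.25 to 0.25, Polr3a from -0.10 to 0.51 and Polr3gl from -0.50 to 0.28, none past the threshold. The cause was not tested. Signals near or below those of the Bacillus controls limit Polr1e, Polr3f, Polr3g and Gtf2a1l on all arrays, and Polr1b, Polr3a, Polr3c, Polr3gl, Polr3k, Gtf2f2, Gtf2ird2 and Gtf3c5 on at least 1 array.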

Other observations

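Probe sets with several gene symbols were outside the name rule, and 2 of them include a polymerase subunit. The probe set annotated to Usp50 and Polr2l, a small subunit common to all 3 polymerases, read 426 and 421.5 on the wild-type arrays and 785.7 and 870.1 on the Sftpc-Nmyc arrays, a log2 difference of 0.94. The probe set annotated to LOC100862456 and Polr2k, another common subunit, read 199 and 192.4 against 270.6 and 462.5, a log2 difference of 0.84. Groups did not overlap in either, no test was made, and which of the annotated genes gave the signal was not examined.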
